A study of Mus musculus with 2 samples.

Results

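The genes described here are 33 genes of sterol and fatty acid synthesis in the mouse neurohypophysis (NH), the posterior lobe of the pituitary. They were taken by symbol from a list of the pathway, drawn up with earlier results of these data known. Of them 5 encode the sterol regulatory element-binding proteins (SREBPs) themselves or proteins that act on them, and are called SREBP regulators below. The others are 17 genes of cholesterol synthesis, 10 of fatty acid synthesis and *Stard4*, which encodes a sterol carrier protein. All 33 were found among the 27998 genes of both count matrices and in the deposited table of cluster means. The NH of male C57BL/6 mice aged 3 months was dissociated as 2 pools, each of 5 mice, and sequenced as single cells, with no genotype, treatment or time compared. Because mice were pooled before capture, the animals within a pool cannot be told apart. The p-values below rest on the spread between 2 pools, drawn toward a spread shared by all genes tested. In some contrasts they rest mostly or only on that shared spread. The question asked of the data was in which cell types these genes were higher or lower.

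SREBPs are transcription factors made as membrane proteins of the endoplasmic reticulum. *Scap* encodes the escort that carries them to the Golgi, where they are cut and released toward the nucleus, and *Insig1* and *Insig2* encode the proteins that hold the escort back when sterols are plentiful. *Srebf1* is known mainly for driving genes of fatty acid synthesis and desaturation, and *Srebf2* for driving genes of cholesterol synthesis and uptake. In nervous tissue, glia are the main site of lipid synthesis in the adult. Pituicytes are the glia of the NH and surround the terminals of the oxytocin and vasopressin axons.

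Within the study's limits on UMIs, genes and mitochondrial share, 273 cells of pool 1 and 255 of pool 2 remained, with 699676 and 726706 unique molecular identifiers (UMIs, each marking 1 captured mRNA molecule) and a median of 2050.0 and 2330.0 UMIs per cell. No cell barcode was shared by the pools' kept cells. The 528 cells were assigned to the authors' 7 cell types from the deposited cluster means. There were 196 pituicytes, 148 intermediate lobe (IL) cells, 95 macrophage/microglia, 42 T-cell like cells, 23 epithelial-like cells, 13 vascular endothelia and 11 vascular and leptomeningeal cells (VLMC). IL cells are the *Pomc*-expressing melanotropes of the neighbouring lobe, present as residual tissue, and the deposited table names their clusters neural progenitor a and b. Each type held at least 6 of its own 6 to 10 markers at 2-fold or more over the other cells, with all 10 in pituicytes. Marker lists of other cells were also high in the small types, with 7 of 7 oligodendrocyte markers in VLMC and 4 of 6 markers of anterior lobe endocrine cells in epithelial-like cells. Of the latter markers 2, *Gh* and *Prl*, were also high in IL cells, at a summed level of all 6 of 188 CPM in pool 1 and 9369 CPM in pool 2. In epithelial-like cells the same 6 summed to 35357 CPM in pool 1 and 2758 CPM in pool 2. The markers of epithelial-like cells summed to 4711 and 3773 CPM there. The median mitochondrial share was 14.9% in pituicytes, 9.90% in IL cells and 4.28% in macrophage/microglia. Levels are given as CPM, the UMIs of a gene per 1e+06 UMIs of the same cells. The types are clusters built from these same cells, so the genes used for clustering were not independent of the types.

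*Srebf1*, which encodes the SREBP of fatty acid synthesis, was high in pituicytes and low in most other cells. The gene lies on the minus strand at chr11:60199089-60222581 (GRCm38). Its level in pituicytes was 815 CPM in pool 1, from 192 UMIs, and 517 CPM in pool 2, from 131 UMIs. All other cells together held 49.6 and 25.4 CPM. Pituicytes thus held 90.2% of all *Srebf1* UMIs with 34.3% of all UMIs, and the ranges of the groups did not overlap. The level in pituicytes was 16.4-fold that of all other cells in pool 1 and 20.4-fold in pool 2. edgeR's quasi-likelihood test gave a log2 fold change of 4.14 ± 0.34 (SE) with a Benjamini-Hochberg adjusted p of 1.14e-07. The call held under all 11 alternative fits of this contrast.

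Among the other types, *Srebf1* measured 311 and 118 CPM in epithelial-like cells, from 6 UMIs in 2 cells and 7 UMIs in 7 cells. In pool 1 these cells held more anterior lobe marker UMIs than UMIs of their own markers. The part of anterior lobe transcripts in this level was not tested. In IL cells the level was 56.9 CPM in pool 1 and 12.0 CPM in pool 2, from 16 and 3 UMIs. Over both pools epithelial-like cells stood second, at 166 CPM, and IL cells lay well below pituicytes, at 35.8 CPM. VLMC held 2 UMIs, both in pool 2, at 132 CPM there, above the 118 CPM of epithelial-like cells. Over both pools VLMC were at 84.8 CPM. A single *Srebf1* UMI was found in macrophage/microglia, and none in T-cell like cells or vascular endothelia. With 3 counts as the limit that a count of 0 allows over a whole group, pituicytes held at least 18.5-fold the level of T-cell like cells and at least 5.25-fold that of vascular endothelia. Between pairs of types, *Srebf1* was higher in pituicytes than in IL cells (log2 fold change 4.18 ± 0.43, edgeR adjusted p 2.71e-17) and higher than in epithelial-like cells (1.92 ± 0.49, edgeR adjusted p 0.00498). The latter call was lost in DESeq2, in the fit with no filter on low counts and in cells with a mitochondrial share under 10%.

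*Scd2*, a stearoyl-CoA desaturase that makes monounsaturated fatty acids and is known as the brain form of the enzyme, had the most UMIs of the enzyme genes. It lies at chr19:44293674-44306864 on the plus strand. Its level in pituicytes was 395 CPM in pool 1 and 537 CPM in pool 2, against 75.4 and 148 CPM in all other cells. Pool 2 was the higher pool for *Scd2* in both groups, and the pituicyte values lay above the others. The log2 fold change was 2.06 ± 0.31 with an edgeR adjusted p of 8.81e-05. IL cells held 88.9 and 216 CPM, epithelial-like cells 104 and 118 CPM, and T-cell like cells 18.2 and 34.4 CPM. Only 2 UMIs were counted in macrophage/microglia and none in vascular endothelia. *Scd2* was higher in pituicytes than in IL cells by 1.62 ± 0.36 on the log2 scale (edgeR adjusted p 1.74e-04), and higher than in epithelial-like cells by 2.02 ± 0.53 (edgeR adjusted p 0.00808). Both calls were lost in cells with a mitochondrial share under 10%. DESeq2 did not make the first of them, and the fit with no filter did not make the second.

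VLMC were the one type whose *Scd2* level reached that of pituicytes, at 824 and 397 CPM from 7 and 6 UMIs. Of these 13 UMIs, 7 lay in the 2 cells that also held 434 of the 447 UMIs of oligodendrocyte markers counted in the type and no UMI of the VLMC marker *Lum*. The other 9 cells held 6 *Scd2* UMIs. The 5 cells with a *Lum* UMI held 1 *Scd2* UMI of 6429 UMIs, and the 6 cells without held 12 of 17160. The part of the oligodendrocyte transcripts in the *Scd2* level was not tested. With 13 UMIs in 11 cells, the contrast of VLMC with all other cells gave an edgeR adjusted p of 0.262.

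**Figure D1:**
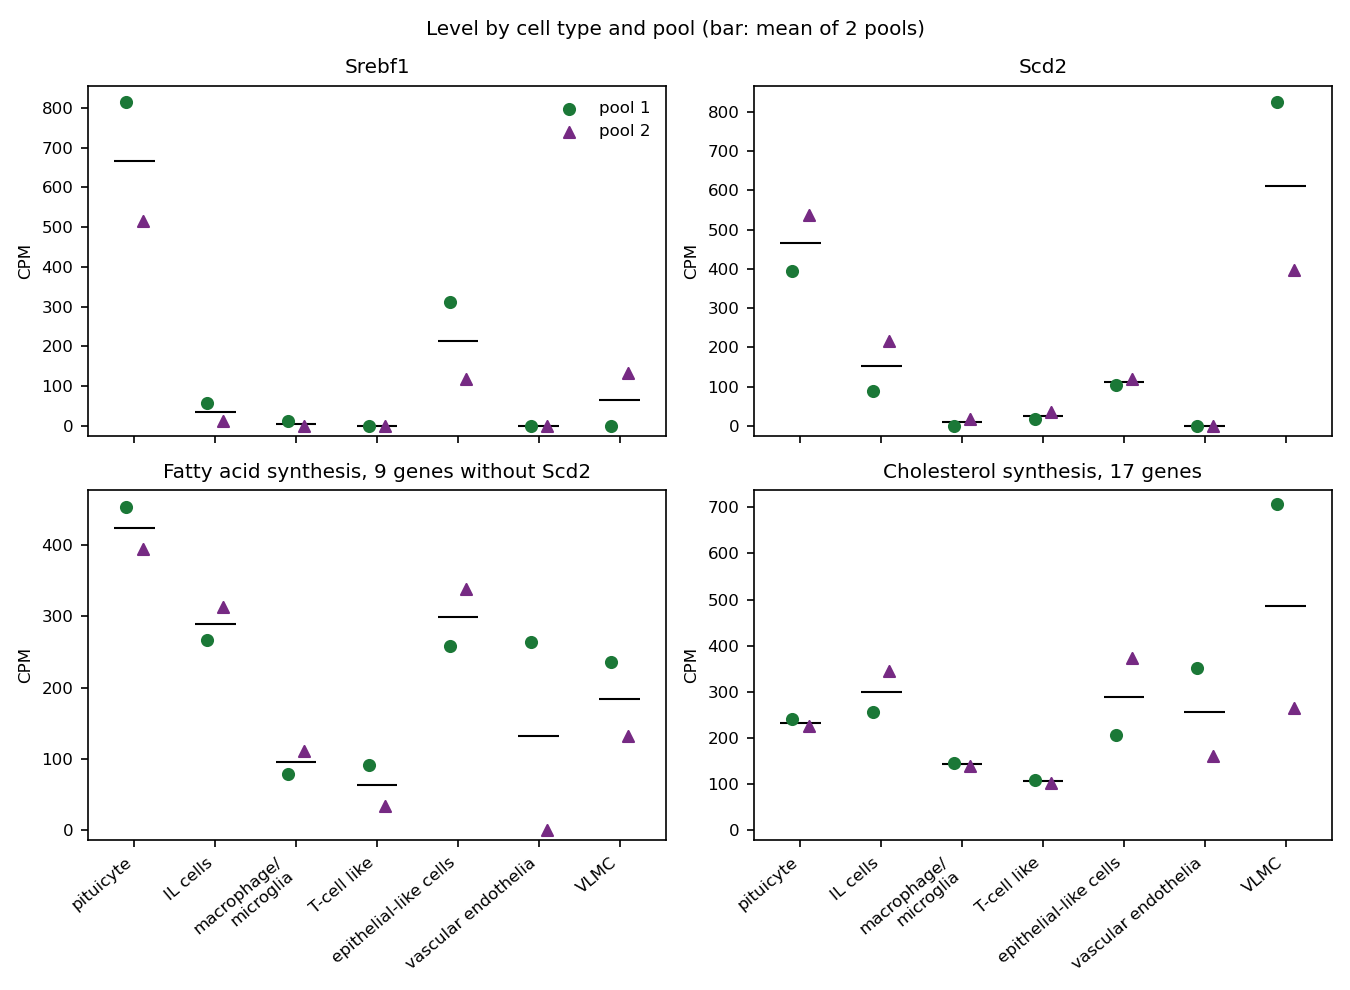
Level in CPM (vertical axes) by cell type for *Srebf1*, *Scd2*, the sum of the other 9 fatty acid synthesis genes and the sum of the 17 cholesterol synthesis genes. Circles and triangles are the 2 pools and bars their mean. *Srebf1* stands at 815 and 517 CPM in pituicytes, whereas the summed cholesterol synthesis genes are at 242 and 225 CPM there and at 256 and 345 CPM in IL cells.

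Both genes were also counted by the share of cells that held a UMI of them. At least 1 *Srebf1* UMI was found in 141 of 196 pituicytes, or 71.9% (exact 95% Clopper-Pearson interval 65.1 to 78.1%), with up to 10 in a cell. It was found in 15 of 148 IL cells, or 10.1% (5.78 to 16.2%). Macrophage/microglia, with a median of 1739.0 UMIs per cell against 2055.5 in pituicytes, had 1 cell of 95 with a UMI. T-cell like cells had 0 of 42, which allows a share of up to 7.14% with 3 cells as the limit, and of up to 8.41% by the exact interval. When every cell was thinned to 1000 UMIs, the share was 45.9% in pituicytes and 4.73% in IL cells. For *Scd2* the shares were 58.2% of pituicytes (50.9 to 65.2%) and 32.4% of IL cells (25 to 40.6%), and 33.7% and 14.2% after thinning. Of the 196 pituicytes, 89 held UMIs of both genes, 52 of *Srebf1* only, 25 of *Scd2* only and 30 of neither. The intervals, like the limit for 0 cells, hold counting error alone. The estimated share of free RNA, from *Pomc* in the immune cells of each pool and in droplets with few UMIs, was 6.10% (pool 1) and 5.19% (pool 2). Such droplets were taken from pool 1 for both pools, so that the estimate of pool 2 rests on the free RNA of pool 1. It would give 8.64 and 7.35 CPM of *Srebf1* in any cell type, and IL cells held 12.0 CPM in pool 2.

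**Figure D2:**
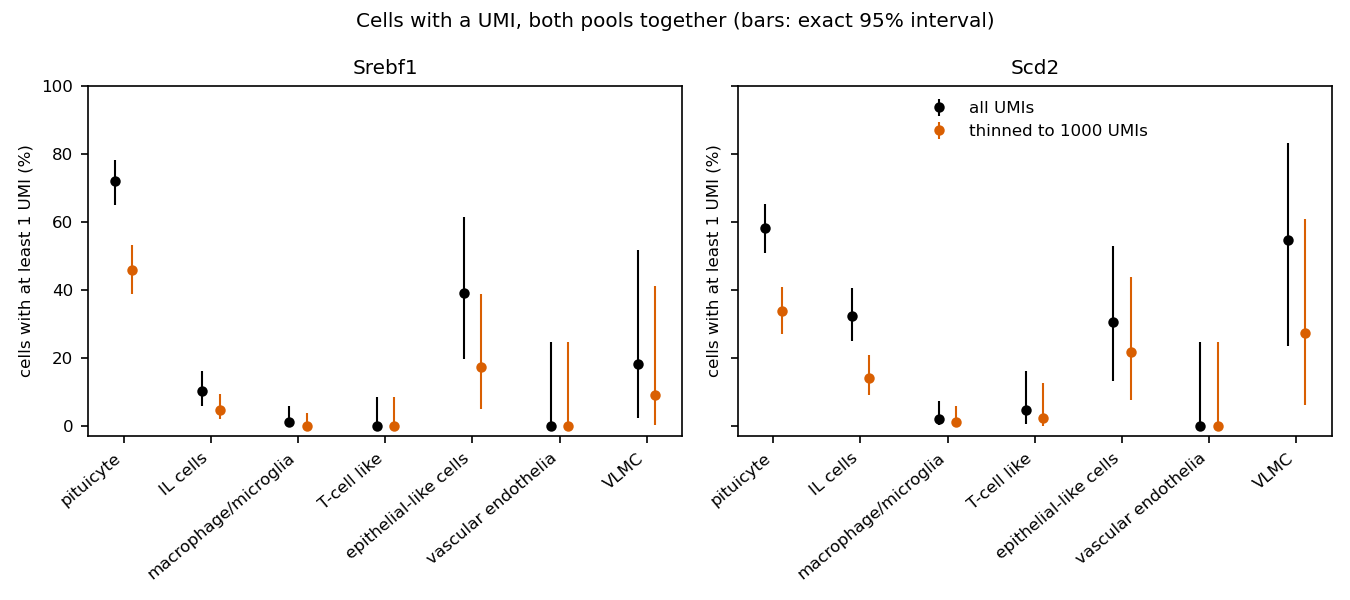
Share of cells with at least 1 UMI (%) of *Srebf1* and *Scd2* in the 7 cell types, for all UMIs (black) and after thinning each cell to 1000 UMIs (orange), both pools together. Vertical lines are exact 95% intervals. For *Srebf1* the interval of pituicytes, 65.1 to 78.1%, lies above those of all other types before thinning. After thinning it overlaps that of VLMC. The intervals hold counting error over cells and not the spread between the 2 pools.

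Over all 33 genes, 29 had the total of 10 UMIs that was asked for a test, and *Mvd*, *Tm7sf2*, *Fads2* and *Lss* did not, with 3, 3, 3 and 5 UMIs over all cells. In pituicytes, 8 of the 29 were higher than in all other cells and 0 were lower, whereas 8.51% of the 11082 genes tested were higher and 10.5% lower. The 8 were *Srebf1*, *Scap*, *Insig2*, *Scd1*, *Scd2*, *Fasn*, *Acss2* and *Me1*. Thus 3 of the 5 SREBP regulators and 5 of the 9 tested genes of fatty acid synthesis were higher, and none of the 14 tested genes of cholesterol synthesis passed in either direction. Of the fatty acid genes called, *Scd1* and *Acss2* passed the filter of 10 UMIs only through pituicytes. Their calls, and the counts that include them, are not independent of that filter. The median log2 fold change was 1.57 for the regulators, 1.52 for fatty acid synthesis and -0.26 for cholesterol synthesis, against -0.01 for all genes tested. The calls of the 6 genes other than *Srebf1* and *Scd2* were not made by DESeq2, which gave 22 of the members an adjusted p, or in cells with a mitochondrial share under 10%, where 20 members could be tested. The fit with no filter on low counts called *Srebf1* alone. All 8 were called with the pools as a block and when cells were clustered again without the genes of these lists. They were also called with mitochondrial genes left out of the library size.

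**Figure D3:**
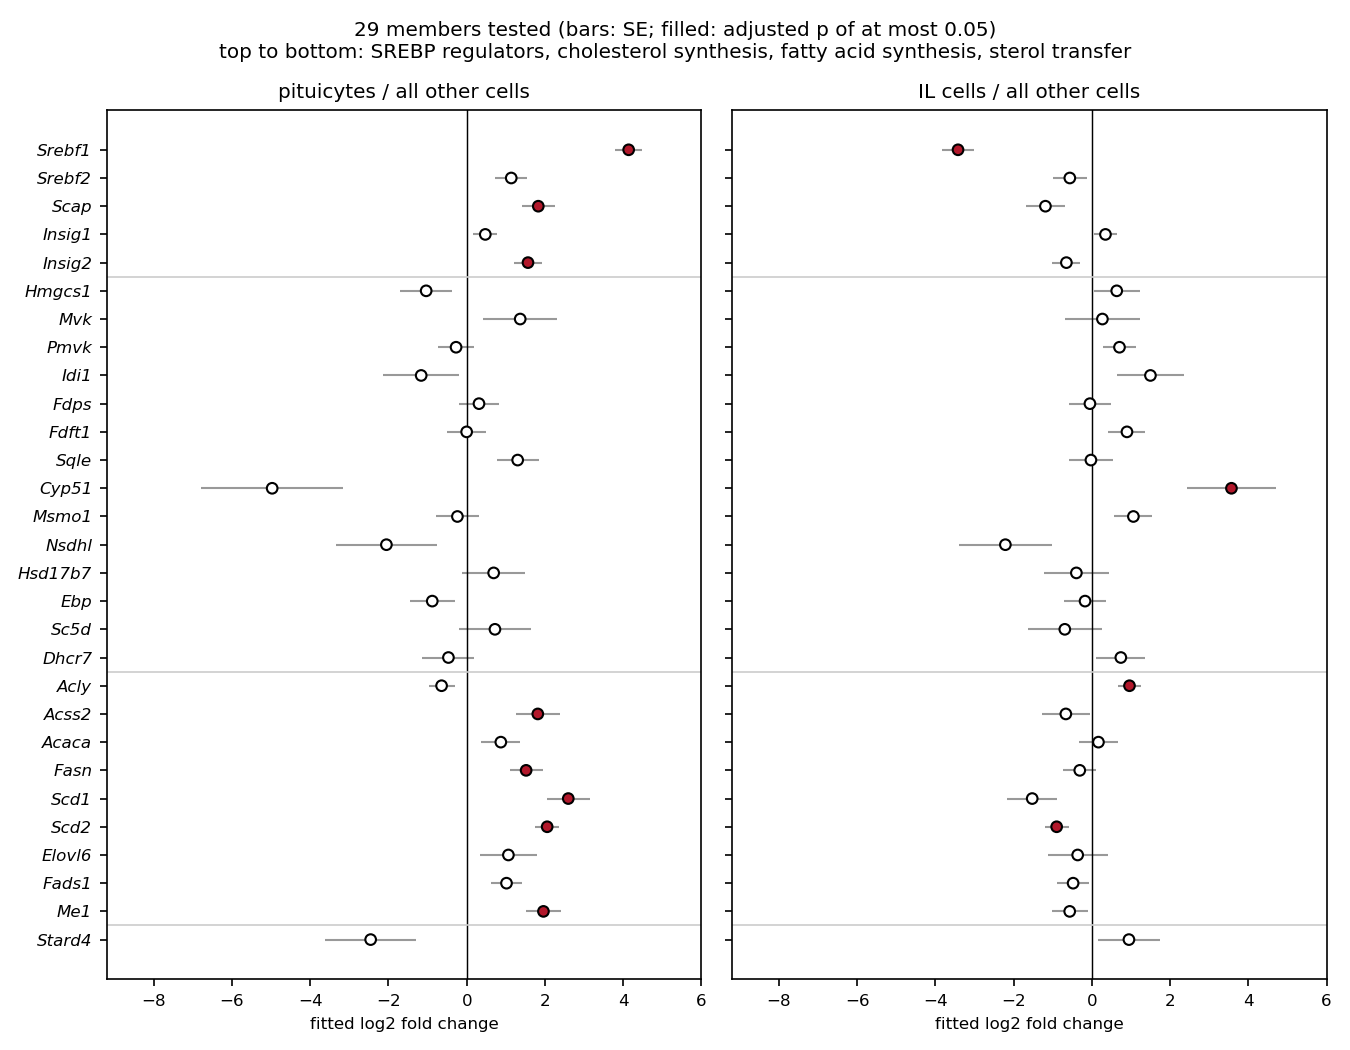
Fitted log2 fold change (horizontal axis) of the 29 tested genes in pituicytes (left) and IL cells (right) against all other cells, with SE as lines and filled points for an adjusted p of at most 0.05. In pituicytes the 8 filled points lie to the right, at 1.52 to 4.14, among the regulators and fatty acid genes. *Cyp51* had 0 UMIs in pituicytes, so its position there depends on edgeR's prior count.

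Among the regulators, *Insig2*, which retains the SREBP escort in the endoplasmic reticulum, measured 106 and 122 CPM in pituicytes and 30.2 and 46.5 CPM in all other cells (log2 fold change 1.57 ± 0.35, edgeR adjusted p 0.00339). *Scap*, the escort itself, measured 59.4 and 71.0 CPM against 15.1 and 21.1 CPM (1.83 ± 0.43, edgeR adjusted p 0.00528). For both genes the pools of pituicytes lay above those of all other cells summed. Over both pools, epithelial-like cells held 63.8 CPM of *Scap*, from 5 UMIs, close to the 65.4 CPM of pituicytes. They held 38.3 CPM of *Insig2*, from 3 UMIs, against 114 CPM in pituicytes. *Srebf2*, the SREBP of cholesterol synthesis, measured 72.1 and 51.3 CPM against 25.9 and 29.6 CPM and did not pass (1.14 ± 0.40, edgeR adjusted p 0.0575). Over both pools it was at 89.3 CPM in epithelial-like cells, from 7 UMIs, and at 61.3 CPM in pituicytes. *Insig1*, the other retention protein and a known SREBP target, was at 132 and 138 CPM in pituicytes and at 73.3 and 120 CPM in all other cells (0.47 ± 0.31, edgeR adjusted p 0.333). In IL cells *Insig1* measured 96.0 and 160 CPM, and the pools of the 2 types overlapped.

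The enzymes of fatty acid synthesis were taken in the order of the pathway. *Acly*, which makes cytosolic acetyl-CoA from citrate, ran the other way from most of the list, at 59.4 and 59.2 CPM in pituicytes and 103 and 132 CPM in IL cells. *Acss2*, which makes acetyl-CoA from acetate, measured 29.7 and 39.5 CPM in pituicytes and 8.62 and 10.6 CPM in all other cells (log2 fold change 1.82 ± 0.57, edgeR adjusted p 0.0307). Of its 26 UMIs 17 lay in pituicytes, and without them *Acss2* would not have passed the filter of 10 UMIs. *Me1*, the malic enzyme that supplies NADPH, measured 72.1 and 63.1 CPM against 21.6 and 12.7 CPM (1.96 ± 0.44, edgeR adjusted p 0.00368). These 2 suppliers of substrate and reducing power were 3.35-fold to 4.98-fold higher in every pool. *Acaca*, which makes malonyl-CoA, measured 63.7 and 27.6 CPM against 17.2 and 31.7 CPM, a difference that turned direction between the pools. *Fasn*, the fatty acid synthase, measured 102 and 59.2 CPM against 19.4 and 35.9 CPM (1.52 ± 0.42, edgeR adjusted p 0.0158). Its fold was 5.25 in pool 1 and 1.65 in pool 2.

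Among the enzymes that modify fatty acids, *Scd1*, a neighbour of *Scd2* at chr19:44394455-44407879 on the minus strand, measured 38.2 and 55.2 CPM in pituicytes. All other cells held 6.47 and 8.45 CPM of it, from 7 UMIs in all, so *Scd1* passed the filter of 10 UMIs only through pituicytes. Its log2 fold change was 2.60 ± 0.56 with an edgeR adjusted p of 0.00264, and 76.7% of its 30 UMIs lay in pituicytes. *Scd1* and *Scd2* are close paralogs, and reads that both could match may have been lost or split in the counting. *Fads1*, a desaturase of polyunsaturated fatty acids, measured 55.2 and 78.9 CPM against 34.5 and 31.7 CPM and did not pass (1.02 ± 0.38, edgeR adjusted p 0.0739). *Elovl6*, which lengthens saturated fatty acids, had 10 UMIs in pituicytes and 9 in all other cells. Without *Scd2*, the other 9 genes summed to 454 and 395 CPM in pituicytes, 267 and 313 CPM in IL cells and 78.9 and 111 CPM in macrophage/microglia, without overlap between these 3 types.

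**Figure D4:**
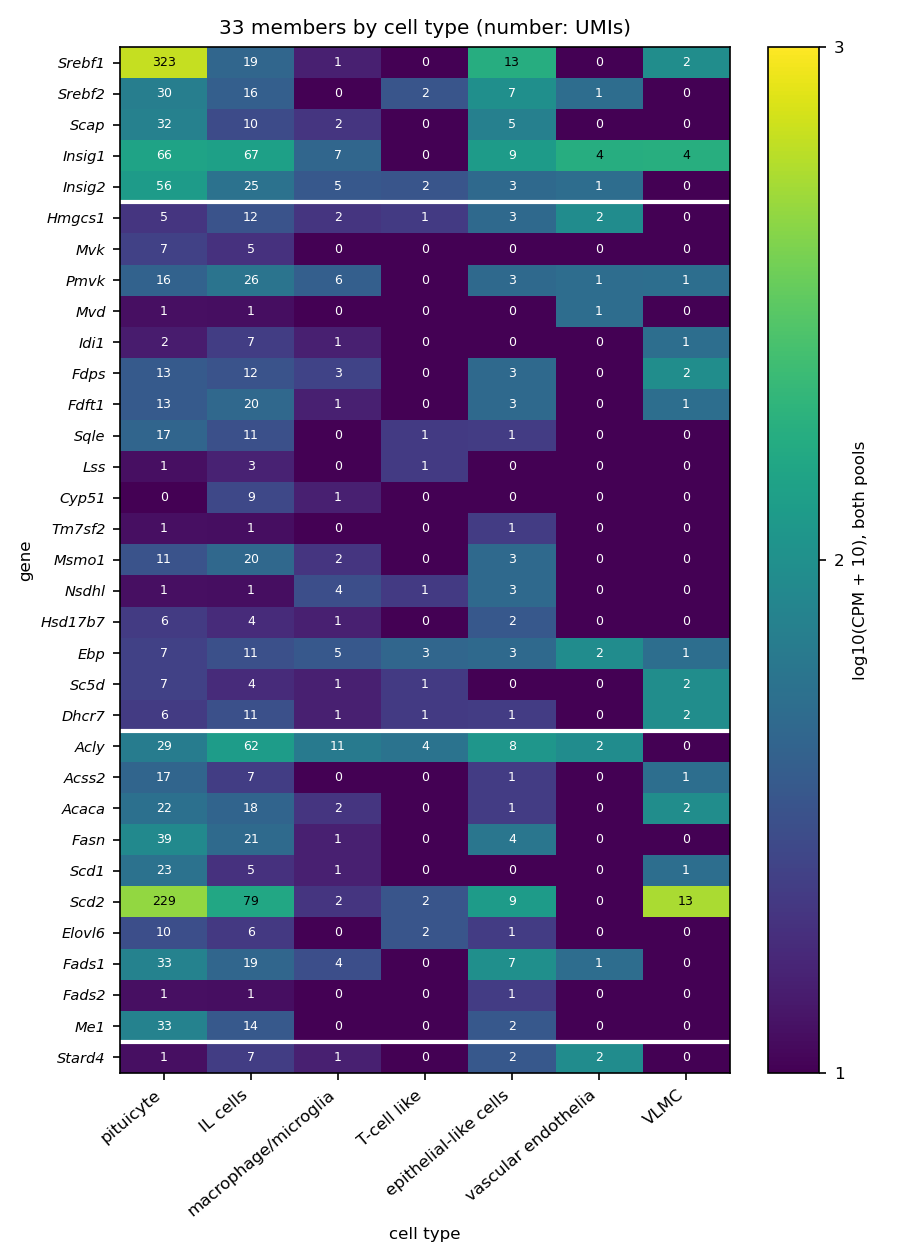
The 33 genes (rows, by role) in the 7 cell types (columns). Colour is log10(CPM + 10) over both pools, and the number in each cell is the count of UMIs. *Srebf1* holds 323 UMIs in pituicytes and 19 in IL cells, whereas no cholesterol synthesis gene, from *Hmgcs1* to *Dhcr7*, exceeds 26 UMIs in any type.

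The genes of cholesterol synthesis were sparsely counted in all types. Together the 17 genes held 242 and 225 CPM in pituicytes, 256 and 345 CPM in IL cells, 147 and 139 CPM in macrophage/microglia and 109 and 103 CPM in T-cell like cells. By these sums pituicytes lay below IL cells in both pools, in pool 1 from 57 and 72 UMIs. Mitochondrial UMIs are part of the CPM, and their median share in pool 1 was 17.2% in pituicytes and 10.4% in IL cells. The sums without mitochondrial UMIs were not compared. With every cell thinned as above, 22.4% of pituicytes (exact interval 16.8 to 28.9%) and 18.9% of IL cells (13.0 to 26.2%) held a UMI of these genes. The order of the types thus turned with the measure, and these intervals overlapped. *Hmgcs1*, which makes HMG-CoA at the start of the pathway, had 5 UMIs in pituicytes and 12 in IL cells. *Pmvk*, a kinase of the mevalonate steps, had the most UMIs of the list with 16 and 26. *Fdft1*, which commits the pathway to sterols, had 13 and 20. *Sqle*, the squalene epoxidase, was at 29.7 and 39.5 CPM in pituicytes against 10.8 and 16.9 CPM in all other cells, and did not pass (1.30 ± 0.53, edgeR adjusted p 0.100). *Msmo1*, a sterol demethylase, had 11 UMIs in pituicytes and 20 in IL cells. The remaining tested genes of the list, apart from *Cyp51*, held between 1 and 13 UMIs in pituicytes. At these counts a difference that did not pass was not shown to be absent.

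*Cyp51*, the lanosterol demethylase, was the one gene counted in IL cells and not in pituicytes. Pituicytes held 0 UMIs in both pools. IL cells held 2 UMIs in pool 1 and 7 in pool 2, or 7.11 and 28.1 CPM, and macrophage/microglia held 1. The level of IL cells was at least 2.76-fold that of pituicytes, with 3 counts over the group as the limit. *Cyp51* was called higher in IL cells than in all other cells (edgeR adjusted p 0.0260) and than in pituicytes (edgeR adjusted p 0.0291). With the pools as a block neither call passed, at adjusted p of 0.107 and 0.0702. In DESeq2 *Cyp51* was not among the genes called, and pool 1 alone gave a log2 fold change of 1.57 over all other cells. All of this rests on 10 UMIs, 9 of them in IL cells. *Cyp51* thus passed the filter of 10 UMIs only through the type where it was called higher, and these calls are not independent of that filter. *Stard4*, the sterol carrier, had 1 UMI in pituicytes and 7 in IL cells, of 13 in all, and measured 4.24 and 0 CPM against 7.11 and 20 CPM. Its contrast of pituicytes with all other cells did not pass (-2.46 on the log2 scale, edgeR adjusted p 0.163).

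In IL cells, 4 of the 29 genes were called against all other cells, *Cyp51* and *Acly* higher and *Srebf1* and *Scd2* lower, where 9.79% of all genes tested were higher and 15.4% lower. *Acly* measured 103 and 132 CPM in IL cells and 55 and 65.0 CPM in all other cells (log2 fold change 0.96 ± 0.31, edgeR adjusted p 0.0276). *Srebf1* fell by 3.42 on the log2 scale (edgeR adjusted p 4.80e-06), and of its 339 UMIs in the other cells of this contrast 323 were those of pituicytes. *Scd2* measured 88.9 and 216 CPM against 246 and 319 CPM and fell by 0.90 (edgeR adjusted p 0.0398), by 1.47 in pool 1 and 0.56 in pool 2. Several of these genes were higher in IL cells of pool 2, the pool with the anterior lobe markers, of whose 2338 UMIs 1994 lay in the 4 cells where they made up over 5% of UMIs. Without these 4 cells, a choice made after seeing the data, IL cells of pool 2 held 221 CPM of *Scd2*, 138 CPM of *Acly* and all 7 UMIs of *Cyp51*. The 64 cells left still held 344 UMIs of the anterior lobe markers, or 1434 CPM, against 188 CPM in pool 1. The part of anterior lobe transcripts in the levels of pool 2 was not tested. With each of the other 6 types weighed equally, the log2 fold changes in IL cells were 0.78 for *Srebf1* and 1.70 for *Scd2*, and *Scd2* was at 0.032 in cells with a mitochondrial share under 10%. With the pools as a block 1 call remained, that of *Srebf1*, and *Acly* and *Scd2* had adjusted p of 0.0514 and 0.0638. The 7 contrasts share the same cells, and a call in one is not independent of the others.

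Set directly against IL cells, pituicytes were higher in 4 genes, *Srebf1*, *Scd2*, *Scd1* and *Scap*, and lower in 1, *Cyp51*, where 8.07% of all genes tested were higher and 6.78% lower. The log2 fold change of *Scd1* was 2.18 ± 0.73 (edgeR adjusted p 0.0251) and that of *Scap* 1.73 ± 0.60 (edgeR adjusted p 0.0334). Neither was called by DESeq2 or in cells with a mitochondrial share under 10%, where *Scd1* was not tested, and *Scap* was also lost without the filter. As stated above, *Scd1* passed the filter only through pituicytes. By the pool values alone, 11 of the 29 genes had both pituicyte pools above both IL pools, against 28.1% of all genes tested, and 10 had both below, against 25.7%. By role, above were 4 of 5 regulators and 6 of 9 fatty acid genes, while 8 of 14 cholesterol synthesis genes were below and 1, *Sqle*, was above, and the difference between roles was not tested.

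Macrophage/microglia held 293 and 361 CPM of the 33 genes summed, against 2279 and 2055 CPM in pituicytes. Not every gene was low there. Over both pools *Acly* was at 56.0 CPM and *Pmvk* at 30.5 CPM, against 59.3 and 32.7 CPM in pituicytes. *Ebp* and *Nsdhl*, from 5 and 4 UMIs, lay above pituicytes, at 25.4 and 20.3 CPM against 14.3 and 2.04 CPM. In macrophage/microglia 0 of the 29 genes were called higher than in all other cells and 6 were called lower, where 7.48% of all genes tested were higher and 11.5% lower. The 6 were *Srebf1*, *Scd2*, *Srebf2*, *Insig1*, *Fasn* and *Me1*. *Srebf2* and *Me1* had 0 UMIs of 196578 there, and pituicytes held at least 4.02-fold and 4.42-fold their levels. *Insig1* had 5 and 2 UMIs, or 56.4 and 18.5 CPM, and its log2 fold change was -0.80 in pool 1 and -2.97 in pool 2. The median log2 fold change of all genes in this contrast was -0.71, and -0.60 with TMM normalization, under which *Insig1* was not called. With the pools as a block 1 of the 6 calls remained, *Srebf1*, and 1.62% of all genes were called in place of 19.0%. With no filter on low counts 0 of the 6 remained. Against macrophage/microglia directly, pituicytes were higher in 10 genes, where 10.0% of all genes tested were higher. They were the 6 named above with *Insig2*, *Scap*, *Acss2* and *Sqle*, and *Sqle* had 17 UMIs in pituicytes and 0 in macrophage/microglia. As stated above, *Acss2* passed the filter only through pituicytes. DESeq2 called 3 of the members in this pair, and over all genes 314 higher and 394 lower. IL cells were higher than macrophage/microglia in 4 genes, *Scd2*, *Insig1*, *Srebf2* and *Me1*, where 10.4% of all genes tested were higher, and with the pools as a block in 2, *Scd2* and *Insig1*.

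The 4 smaller types gave fewer calls. In T-cell like cells *Srebf1*, *Scd2* and *Insig1* were lower than in all other cells, where 3.69% of all genes tested were lower, and with the pools as a block 0 were called. *Insig1* had 0 UMIs in this type. With TMM normalization the genes called in T-cell like cells were 409 higher and 963 lower in place of 402 and 409, and the median log2 fold change of all genes was -1.47 in place of -1.23. Pituicytes were higher than T-cell like cells in 6 genes, the same 3 with *Fasn*, *Fads1* and *Me1*, where 5.89% of all genes tested were higher, and in *Srebf1*, *Scd2*, *Insig1* and *Fasn* with the pools as a block. Under TMM normalization 868 genes were higher and 480 lower in this pair in place of 653 and 574. Vascular endothelia, with 23834 UMIs, had 0 UMIs of *Srebf1* and *Scd2*, which were called lower where 0.803% of all genes tested were. Both calls were made by DESeq2 and with a fold limit, and neither was made with the pools as a block, without the 5 doublets that Scrublet marked or under TMM normalization, where the genes called were 67 higher and 151 lower in place of 253 and 89. In epithelial-like cells and VLMC edgeR called 0 of the 29 genes, where 3.24% and 1.89% of all genes tested were called, with 2 at an unadjusted p under 0.05 in each. DESeq2 called 0 and 2 of the 29 genes there. Over all genes it called 112 higher and 68 lower in epithelial-like cells and 97 higher and 659 lower in VLMC. The genes called higher and lower turned with TMM normalization from 255 and 104 to 109 and 122 in epithelial-like cells and from 153 and 56 to 41 and 66 in VLMC. Against epithelial-like cells pituicytes were higher in *Srebf1* and *Scd2*, where 1.03% of all genes tested were higher. Both were also called with TMM normalization, under which 242 genes were higher and 212 lower in place of 114 and 305.

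The authors divided pituicytes into 3 clusters and IL cells and macrophage/microglia into 2 each. The pituicyte clusters differed in mitochondrial share, with medians of 9.90%, 17% and 20.7% in clusters a, b and c. *Srebf1* measured 940 and 452 CPM in cluster a, 866 and 445 CPM in cluster b and 706 and 717 CPM in cluster c. In pools 1 and 2 of cluster c the values were close, and in the other clusters pool 1 was higher. *Scd2* measured 434 and 406, 373 and 603, and 381 and 812 CPM in the same order. The 3 clusters overlapped for both genes, and all lay above both IL clusters, where *Srebf1* reached 72.1 CPM and *Scd2* 226 CPM. In the 5 comparisons between clusters of a type, 0 of the 29 genes were called by edgeR or by DESeq2, where edgeR called 0.0722%, 0.0722% and 0.0812% of all genes tested between pituicyte clusters, 0.0361% between IL clusters and 0.605% between macrophage/microglia clusters. Only *Srebf2*, between the IL clusters, had an unadjusted p under 0.05 in edgeR. The log2 difference of *Srebf1* between clusters a and b was -0.01 ± 0.37.

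**Figure D5:**
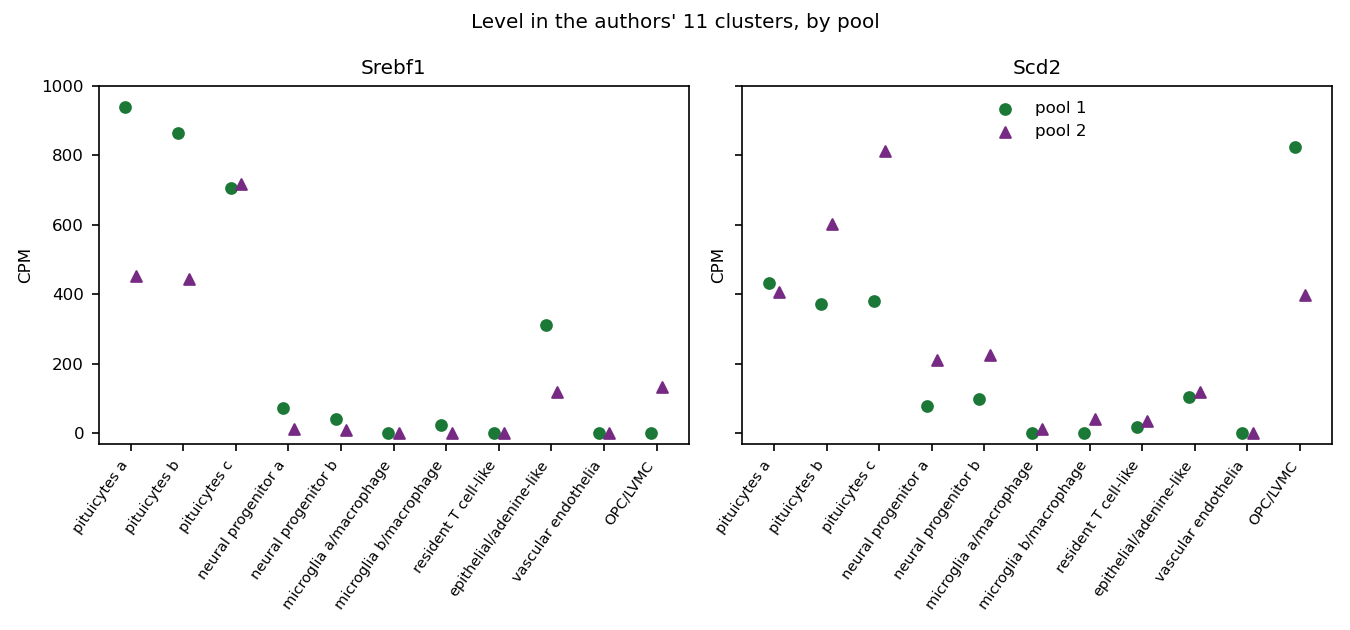
Level of *Srebf1* and *Scd2* in CPM in the 11 clusters of the authors, with circles and triangles for the 2 pools. The 3 pituicyte clusters span 445 to 940 CPM of *Srebf1* and 373 to 812 CPM of *Scd2*, and the ranges of the clusters overlap.

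The authors' deposited means per cluster, in UMIs per 10000 averaged over cells, gave *Srebf1* 6.95, 7.33 and 8.62 in pituicyte clusters a, b and c and 0.612 and 0.599 in the IL clusters. They were pooled over both pools and have no error. By these means 11 of the 33 genes were highest in one of the 3 pituicyte clusters and 17 in one of the 3 smallest clusters, of 11 to 23 cells, with 11 of the 17 in the smallest, that of VLMC. Highest in a pituicyte cluster were 4 of the 5 regulators, 3 of 10 fatty acid synthesis genes and 4 of 17 cholesterol synthesis genes, and in a small cluster 1, 5 and 10 of these lists. The shares over all genes were not counted, so these numbers do not set the 33 genes apart. Some of the highest means rest on few UMIs, that of *Mvd* on 1 UMI in vascular endothelia.

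Sequences upstream of the start sites are shown for *Srebf1*, *Insig2* and *Fasn*, called in pituicytes, and, for contrast, for *Hmgcs1*, which was not. Stretches of *Acss2* and *Cyp51* were also taken and are not shown. A stretch was kept only if it held a searched sequence and overlapped no annotated exon. The stretches shown are therefore not typical of the called genes by choice. RefSeq promoter windows (GRCm38.p6) from 250 bases before to 50 bases after a start were found for 26 of the 33 genes and searched on both strands. The sterol regulatory element TCACNCCAC, which SREBPs bind, was found in 1 of the 26 genes, *Hmgcs1*, and in 1.44% of all 27025 genes with a window. The CCAAT box, bound by NF-Y, a known partner of SREBPs, was found in 22 of the 26 genes and in 41.1% of all genes with a window. The E-box CACGTG was found in 5 of the 26, *Scap*, *Insig1*, *Hsd17b7*, *Sc5d* and *Dhcr7*, and in 8.09% of all genes. In the stretches below, written 5′ to 3′ on the gene's strand up to the base before the start, capitals mark TCACNCCAC and CCAAT or its reverse complement. *Srebf1* has 3 windows, and the one shown starts within the gene. The counts, made from the 3′ ends of transcripts, do not tell its start sites apart.
Srebf1, chr11:60210472-60210571, minus strand: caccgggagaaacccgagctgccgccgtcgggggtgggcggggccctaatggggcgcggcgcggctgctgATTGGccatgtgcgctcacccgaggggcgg
Insig2, chr1:121332590-121332689, minus strand: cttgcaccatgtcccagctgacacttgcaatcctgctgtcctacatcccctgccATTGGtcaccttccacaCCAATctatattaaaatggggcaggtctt
Fasn, chr11:120824548-120824647, minus strand: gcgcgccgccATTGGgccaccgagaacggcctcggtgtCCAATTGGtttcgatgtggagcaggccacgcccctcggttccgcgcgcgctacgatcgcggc
Hmgcs1, chr13:119690171-119690350, plus strand: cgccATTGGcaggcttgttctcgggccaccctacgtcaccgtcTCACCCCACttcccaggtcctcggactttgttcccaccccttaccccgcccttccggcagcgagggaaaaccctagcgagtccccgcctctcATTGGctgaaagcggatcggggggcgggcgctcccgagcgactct
The *Fasn* stretch holds 3 CCAAT boxes, with first bases at -90, -62 and -59 from the start, the last 2 of them overlapping. The *Hmgcs1* stretch holds its sterol element at -137 and CCAAT boxes at -176 and -45. Outside the stretch, its window also holds CCAAT boxes at -237 and, after the start, at 11. *Hmgcs1* measured 8.49 and 11.8 CPM in pituicytes and *Fasn* 102 and 59.2 CPM, and a relation of these letters to the levels was not tested. A match is a description of these letters and not a binding site. A missing match does not show that a site is absent, since TCACNCCAC alone was searched as sterol element, and only within these windows. *Scd1*, *Scd2*, *Fads1*, *Fdps*, *Fdft1* and *Sqle* were not in the table used, and neither was *Stard4*.

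The genes around the pathway were taken from 5 lists with 72 genes, of which 63 could be tested. In pituicytes 12 were higher than in all other cells and 2 lower, against the 8.51% and 10.5% of all genes. Of the 14, *G0s2*, *Rnf145* and *Npc2* were called under all 11 alternative fits, and DESeq2 called 7, the fit with no filter 5 and cells with a mitochondrial share under 10% gave 3. Among the genes that process or degrade SREBP regulators 0 were lower, and those higher included *Rnf145*, a ubiquitin ligase known to act on the escort, and *Mbtps1*, the Golgi protease that makes the first cut in SREBPs. *Rnf145* measured 221 CPM in both pools of pituicytes and 34.5 and 25.4 CPM in all other cells (log2 fold change 2.87 ± 0.32, edgeR adjusted p 3.36e-06). *Mbtps1* measured 106 and 98.6 CPM against 19.4 and 40.1 CPM (edgeR adjusted p 0.00298).

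Of the 8 tested genes of lipoprotein and sterol uptake, *Npc2* and *Lrp1* were higher in pituicytes and *Mylip* and *Npc1* lower. Of all genes tested, 8.51% were higher and 10.5% lower. *Npc2*, which moves cholesterol out of lysosomes, measured 968 and 1089 CPM against 347 and 328 CPM (1.61 ± 0.23, edgeR adjusted p 7.18e-05). *Lrp1*, an endocytic receptor for lipoproteins, measured 195 and 189 CPM against 84.0 and 57.1 CPM (edgeR adjusted p 0.00184). *Npc1*, the membrane partner of *Npc2*, measured 25.5 and 7.89 CPM against 53.9 and 46.5 CPM (edgeR adjusted p 0.0373), and *Mylip*, a ubiquitin ligase of lipoprotein receptors, 8.49 and 3.94 CPM against 43.1 and 42.3 CPM (edgeR adjusted p 0.00427). Of the 11 tested genes of sterol efflux and storage, *Stard3* and *Abca1* were higher and 0 lower, against the same shares of all genes. *Stard3*, a sterol transfer protein of endosomes, measured 63.7 and 78.9 CPM against 17.2 and 14.8 CPM (edgeR adjusted p 0.00148). *Abca1*, which exports cholesterol, measured 127 and 201 CPM against 51.7 and 93.0 CPM (edgeR adjusted p 0.0188). Of the 11 alternative fits, 9 called *Lrp1*, 9 *Mylip*, 8 *Stard3*, 7 *Abca1* and 6 *Npc1*. *Apoe*, the main apolipoprotein of glia, was at 2096 and 2166 CPM in pituicytes and at 3080 and 2208 CPM in all other cells (-0.31 ± 0.24, edgeR adjusted p 0.437). *Apoe* was higher in pituicytes than in IL cells by 3.65 ± 0.32 on the log2 scale (edgeR adjusted p 1.32e-21).

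Of the 12 tested genes of lipid droplets and triglycerides, *G0s2* and *Bscl2* were higher and 0 lower. *G0s2*, an inhibitor of triglyceride lipase, measured 306 and 331 CPM in pituicytes against 15.1 and 21.1 CPM in all other cells, 17.6-fold over both pools (log2 fold change 4.11 ± 0.33, edgeR adjusted p 8.51e-08). *Bscl2*, which encodes seipin of lipid droplets, measured 93.4 and 106 CPM against 62.5 and 33.8 CPM (edgeR adjusted p 0.0472), and was called under 2 of the 11 alternative fits (edgeR adjusted p 0.0640 with the pools as a block). Of the 19 tested genes of other enzymes, *Hacd2*, *Elovl5* and *Lpcat3* were higher and 0 lower, where 8.51% of all genes tested were higher and 10.5% lower. The list also held other genes of fatty acid elongation, among them *Elovl1* and *Tecr*, which were not called. *Hacd2*, a dehydratase of elongation, measured 132 and 126 CPM against 25.9 and 40.1 CPM (edgeR adjusted p 4.83e-04). *Elovl5*, a fatty acid elongase, measured 165 and 162 CPM against 43.1 and 61.3 CPM (edgeR adjusted p 8.84e-04), and *Lpcat3*, an acyltransferase of phospholipids, 42.4 and 55.2 CPM against 12.9 and 19.0 CPM (edgeR adjusted p 0.0240). All 3 lay above the other cells in both pools.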

How the data were processed

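Single cells of 2 pools were captured with the 10x Chromium kit version 2. The authors made UMI counts with Cell Ranger 2.0.0 (forced to 1500 cells) on an mm10 reference and deposited them without normalization. A second deposited table holds a signal, the mean per cluster of UMIs scaled to 10000 per cell. Pool 1 listed 737280 barcodes, of which the 1500 with most UMIs were used. Cells kept had over 1000 and under 10000 UMIs, over 400 and under 5000 genes and a mitochondrial share under 25%, the study's limits.

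Cells were assigned to the authors' 11 clusters by non-negative least squares on the deposited means and merged into 7 types. For 336 of 14999 matched genes the mean of the assigned cells was off by more than 0.05. UMIs were summed per type and pool. The main test was edgeR 4.0.16's quasi-likelihood test (R 4.3.3) of a type against the sum of the other cells, scaled by library size, with 2 residual degrees of freedom, on 11082 genes with at least 10 UMIs of 16258 detected. A call is an adjusted p of at most 0.05. Pairs of types were tested in 1 fit of all type sums and clusters in 1 of all cluster sums. In edgeR each gene's spread is drawn toward a spread shared by all genes. The weight of the shared spread was 15.6 prior degrees of freedom (median) in the pituicyte contrast. In the pairs it was 266, beside 7 residual degrees of freedom, so their p-values rest mostly on the shared spread. In the contrasts of vascular endothelia and VLMC and between clusters the median weight was infinite. Their p-values thus rest on the shared spread and not on a gene's own spread between pools. Sums of the same pool are paired, since they come from the same mice and library. Across genes, their deviations correlated by -0.02 to 0.11 over 21 type pairs (median 0.02). The test was tried on simulated counts with known changes, drawn independently and with no pool effect, unlike the paired sums. In the pituicyte contrast 5.97% of 2-fold and 46.3% of 4-fold changes were recovered. For genes of 10 to 50 UMIs 33.3% of 4-fold changes were, and 3.30% of calls were false. In T-cell like cells 0% of 4-fold changes were recovered.

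Alternatives were TMM and TMMwsp scaling, DESeq2 1.42.0, no filter, the pool as a block, mitochondrial genes left out of the library size, a mitochondrial share under 10%, doublets left out (Scrublet, scanpy 1.11.5), cells clustered again (Seurat 5.3.0) without the listed genes, the mean of the other 6 types, a fold limit of 1 (natural log), and each pool alone. Members, lists and tests were chosen with earlier results of these data known. Values are given for members called in a type of over 40 cells or in a pair with pituicytes, for members not tested, and for the called pathway genes. Values of *Ebp*, *Nsdhl* and *Stard4* are also given, though these genes were tested and not called. *Srebf2*, *Fads1*, *Acaca*, *Elovl6*, *Hmgcs1*, *Pmvk*, *Fdft1*, *Msmo1* and *Apoe* were named for their roles after their values were seen. Share intervals are exact at 95%. Some genes of the pathway lists are counted but not reported here by name.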

Additional observations from a re-analysis of the deposited data

Results flagged for a closer look

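Genes of the 33 were also counted in droplets of pool 1 outside the kept cells. In the barcodes with 1 to 50 UMIs, *Srebf1* was at 142 CPM, from 268 of 1892289 UMIs, *Scd2* at 134 CPM and all 33 genes together at 645 CPM. In the barcodes with over 50 and under 1000 UMIs the values were 184, 138 and 671 CPM. The kept cells of pool 1 held 307, 183 and 1241 CPM, and a count of 0 would have allowed 1.59 CPM in the first set of barcodes. No test between cell types uses either set of barcodes. The first set is also the source of the free RNA estimate above, and its 142 CPM of *Srebf1* entered that estimate. Pool 2 lists 1500 barcodes and was not analysed here in this way.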

How the results depend on the processing

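For *Srebf1* in pituicytes the log2 fold change stayed between 4.06 and 5.66 and was called under all 11 alternative fits. Of 479 values of single genes under alternatives, 324 were counted as the same, 133 kept the direction and lost the call, 19 moved and 3 turned. With both pools, the same means that direction and side of the threshold were kept. Of the 324, 20 came from pool 2 alone and 15 from pool 1 alone, where only fold changes could be compared. Those that moved were 9 of pool 2 alone and 10 of pool 1 alone. The 3 that turned were *Srebf1* in IL cells against the mean of the other 6 types (0.78) and *Scd2* in IL cells against that mean (1.70) and in cells with a mitochondrial share under 10% (0.032). Leaving out a pool left 1 pool and no test.

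The number of members called in pituicytes, 8, became 2 in DESeq2, 1 with no filter on low counts and 2 in cells with a mitochondrial share under 10%, and all genes called, 2111, became 794, 444 and 476, and 1152 against the mean of the other 6 types. The 14 pathway genes called there became 7, 5 and 3 under the first 3 of these alternatives, and none turned direction under any. The 4 of IL cells became 2 with the fold limit, 1 in DESeq2, 1 with no filter, 1 with the pools as a block, 1 under a mitochondrial share of 10% and 0 against the mean of 6 types, and the 2793 genes became 1080 in DESeq2, 1805 with no filter, 1372 under 10% and 1320 against that mean. With the fold limit 838 genes were higher and 1435 lower, and with the block 739 and 1154. The 6 of macrophage/microglia became 3 in DESeq2, 0 with no filter, 1 with the block, 2 under 10% and 0 against the mean, and the 2103 genes became 1196, 220, 180, 966 and 913. The 3 of T-cell like cells became 5 with TMM, 5 with TMMwsp, 0 with no filter, 0 with the block, 1 under 10% and 1 against the mean, and the 811 genes became 1372 with TMM, 1246 with TMMwsp, 245 with no filter and 3 with the block. Under 10%, 311 genes were higher and 285 lower, and against the mean 479 and 156. The 2 of vascular endothelia became 0 with TMM, TMMwsp, no filter, the block, mitochondrial genes left out of the library size, a share under 10%, doublets left out and the mean of 6 types. Over all genes, 253 were called higher and 89 lower in this type. In the same order these became 67 and 151, 47 and 82, 1 and 0, and 0 and 0. The remaining fits gave 181 and 43, 42 and 6, 196 and 38, and 267 and 5. The 0 of epithelial-like cells became 1 against the mean of 6 types, and the 0 of VLMC became 2 in DESeq2 and 1 against that mean. Over all genes, 498 were higher and 6 lower against that mean in epithelial-like cells. In VLMC, 97 were higher and 659 lower in DESeq2, and 208 and 17 against that mean.

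Between pituicytes and IL cells the 5 members called became 3 with no filter, 1 in DESeq2 and 1 under 10%, and the 1645 genes became 300 in DESeq2 and 554 under 10%. With no filter 659 genes were higher and 526 lower in this pair. Between pituicytes and macrophage/microglia the 10 became 5, 3 and 3, and the 1964 genes became 708 in DESeq2 and 1067 under 10%. With no filter 743 genes were higher and 752 lower in this pair. Between pituicytes and T-cell like cells the 6 became 3, 3 and 3. Over all genes, 653 higher and 574 lower became 375 and 455, 418 and 234, and 399 and 292 in this pair. Between pituicytes and epithelial-like cells the 2 became 0, 1 and 0, and between IL cells and macrophage/microglia the 4 became 1, 1 and 1, and 2 with the block. Over all genes, 114 higher and 305 lower became 61 and 171, 105 and 47, and 32 and 72 in the former pair. In the latter, 1149 higher and 1036 lower became 740 and 896, 240 and 489, and 857 and 821. With the block they became 941 and 950. The 0 members between clusters stayed at 0 under each alternative run. The mean of the other 6 types moved the median log2 fold change of all genes in pituicytes from -0.01 to 0.91. A share under 10% left 20 members to test. The causes of these differences were not tested. Depth limits what could be called, with 29 of the 33 genes at 10 UMIs or more over all cells.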
